A study of Rattus norvegicus with 3 samples.

Results

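Bone and mineralization genes were read in cultured tendon stem/progenitor cells (TSPCs) of the rat Achilles tendon. The genes were named by symbol: *Alpl*, *Runx2*, *Spp1*, *Ibsp*, *Sp7*, *Sparc*, *Mgp*, *Postn*, *Enpp1* and *Dmp1*. A probe set, the group of short probes that reads a transcript, counted as a member when the platform's table gave it exactly 1 of these symbols. This held for 9 of 31042 probe sets, which stand for 8 of 14216 genes on the array. *Runx2* and *Sp7*, both transcription factors that commit cells to the osteoblast fate, had 0 probe sets under this rule and were not analysed here.

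The cells came from Sprague-Dawley rats aged 1 day (TSPCs-1d), 7 days (TSPCs-7d) and 56 days (TSPCs-56d), without any allele or drug treatment named. For each age the tendons of at least 2 animals were mixed, the cells were grown from the tissue, seeded thinly so that they formed colonies, and used at passage 2 as a polyclonal culture. All 3 cultures were kept in low glucose DMEM with fetal bovine serum, so these are cells in growth medium and not cells induced to form bone. RNA of each culture was hybridized to 1 Affymetrix Rat Genome 230 2.0 array, which gives a signal in linear intensity units. With 1 array per age there was no measure of the spread between cultures, so no test was made and no order of levels could be judged against an error.

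Fold changes divide the signal on 1 array by that on another, and the methods' cutoff of 2 was used. The lowest 25% of all signals, those below 48.9, were taken as dim, and the median of all signals was 110.1. The medians of the arrays lay between 107 and 114. Signals are listed in the order of age, youngest first. As a guide to the noise within an array pair, genes with exactly 2 probe sets of a mean signal above 110.1 were taken (1719 genes). Dimmer probe sets of the same genes were left aside. The 2 probe sets of each gene were set against each other in log2 ratio. For 10% of these genes they differed by more than 0.39 in TSPCs-7d vs. TSPCs-1d, 0.44 in TSPCs-7d vs. TSPCs-56d and 0.53 in TSPCs-56d vs. TSPCs-1d. The label of the cells was checked against marker lists. All 7 tendon genes measured exceeded the median of all signals on at least 1 array and 6 did on each; the exception was *Thbs4*, which was below it in TSPCs-1d (76.5, 339.6 and 348). *Scx*, the transcription factor of tendon cells, was nearly level (2255, 2578 and 2569), whereas *Tnmd*, the late tendon marker tenomodulin, was lower in each older culture (543, 351 and 158). All 5 mesenchymal stem cell markers exceeded the median on at least 1 array. Markers of other cells did so for 4 of 10 macrophage and blood genes (*Cd68*, *Aif1*, *Lyz2* and *Cd14*), 3 of 9 cartilage, 0 of 5 endothelial, 5 of 7 smooth muscle and pericyte, 1 of 5 skeletal muscle and 2 of 4 osteoclast genes. *Ptprc*, which encodes the leukocyte antigen CD45, was dim on each array (20.8, 24.96 and 30.6).

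Bone mineral grows on a collagen scaffold, and secreted proteins and enzymes decide where crystals form. Pyrophosphate stops crystal growth; *Enpp1* encodes the enzyme that makes it outside the cell, and *Alpl* encodes tissue-nonspecific alkaline phosphatase, which breaks it down and frees phosphate. Matrix Gla protein (*Mgp*) keeps soft tissues free of mineral, while osteopontin (*Spp1*), bone sialoprotein (*Ibsp*) and dentin matrix protein 1 (*Dmp1*) are acidic proteins that bind calcium, the first as an inhibitor and the others as promoters of mineral in bone and dentin. Osteonectin (*Sparc*) and periostin (*Postn*) bind collagen and are abundant in tendon as in bone.

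The genes *Spp1*, *Mepe*, *Ibsp*, *Dmp1* and *Dspp* lie next to each other on chromosome 14, in this order among protein-coding genes of the RefSeq annotation of rat assembly GRCr8. The 250 bases before the annotated start of the 3 members among them are printed because these neighbouring genes of a family gave different patterns on the arrays. They are from RefSeq (GRCr8) and read 5′ to 3′ on the strand of the gene, and capitals mark each E-box, CANNTG, the core letters bound by basic helix-loop-helix factors.
Spp1, chr14:5619805-5620054, minus strand: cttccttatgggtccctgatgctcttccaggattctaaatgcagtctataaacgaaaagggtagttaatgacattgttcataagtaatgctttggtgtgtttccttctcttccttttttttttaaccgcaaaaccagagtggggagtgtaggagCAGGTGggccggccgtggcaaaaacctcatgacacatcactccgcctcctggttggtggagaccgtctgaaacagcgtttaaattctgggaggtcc
Ibsp, chr14:5757243-5757492, minus strand: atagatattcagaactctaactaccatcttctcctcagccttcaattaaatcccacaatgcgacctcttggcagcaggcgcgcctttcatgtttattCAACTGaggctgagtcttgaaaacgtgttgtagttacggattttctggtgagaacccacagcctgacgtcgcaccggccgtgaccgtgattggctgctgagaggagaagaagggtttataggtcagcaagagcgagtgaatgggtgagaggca
Dmp1, chr14:5840085-5840334, minus strand: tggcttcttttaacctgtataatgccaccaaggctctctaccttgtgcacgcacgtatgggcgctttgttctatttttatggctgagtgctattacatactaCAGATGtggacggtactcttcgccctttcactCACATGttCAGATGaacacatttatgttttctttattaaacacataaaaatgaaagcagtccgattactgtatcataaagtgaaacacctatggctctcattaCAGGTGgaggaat
*Spp1* and *Ibsp* each held 1 CANNTG and *Dmp1* held 4. In all promoters of this length, 65.5% of 33469 hold at least 1, so its presence sets none of the 3 apart. The share that hold as many as *Dmp1* was not counted, so whether 4 is a common number is not known. The letters TGTGGT, 1 form of the Runx core, were searched on both strands. They were found in 0 of these 3 windows and in 14.5% of all promoters. Of the 8 promoters of members, 2 held them, 1 of *Runx2* and that of *Sparc*. Other forms of the core were not searched. Of the 10 genes, 7 matched the promoter table. A match is a description of the letters and not a binding site.

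*Enpp1* and *Dmp1* were the members past the cutoff, and they moved in different directions. Compared to TSPCs-1d, *Enpp1* was higher and *Dmp1* lower in TSPCs-7d, and *Dmp1* was also lower in TSPCs-56d. A culture is a mixture of cells, and fewer cells that express a gene cannot be told apart from less RNA of it per cell. In TSPCs-7d vs. TSPCs-1d, 1 of the 9 probe sets was over 2-fold higher and 1 over 2-fold lower, where 1.36% and 0.989% of all probe sets were. In TSPCs-56d vs. TSPCs-1d, 0 were higher and 1 was lower, where 1.52% and 1.80% of all were (473 and 558 probe sets, or 381 and 692 after division of each array by its median). In TSPCs-7d vs. TSPCs-56d, 0 passed the cutoff in either direction, where 1.68% of all were higher and 1.31% lower. These comparisons share arrays, so they are not independent of each other. The counts over 9 probe sets are too small to set the group apart. The median log2 ratio of the 9 probe sets was -0.07 in TSPCs-7d vs. TSPCs-1d, -0.06 in TSPCs-7d vs. TSPCs-56d and 0.01 in TSPCs-56d vs. TSPCs-1d, beside 0.01, -0.05 and 0.05 over all probe sets.

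**Figure D1:**
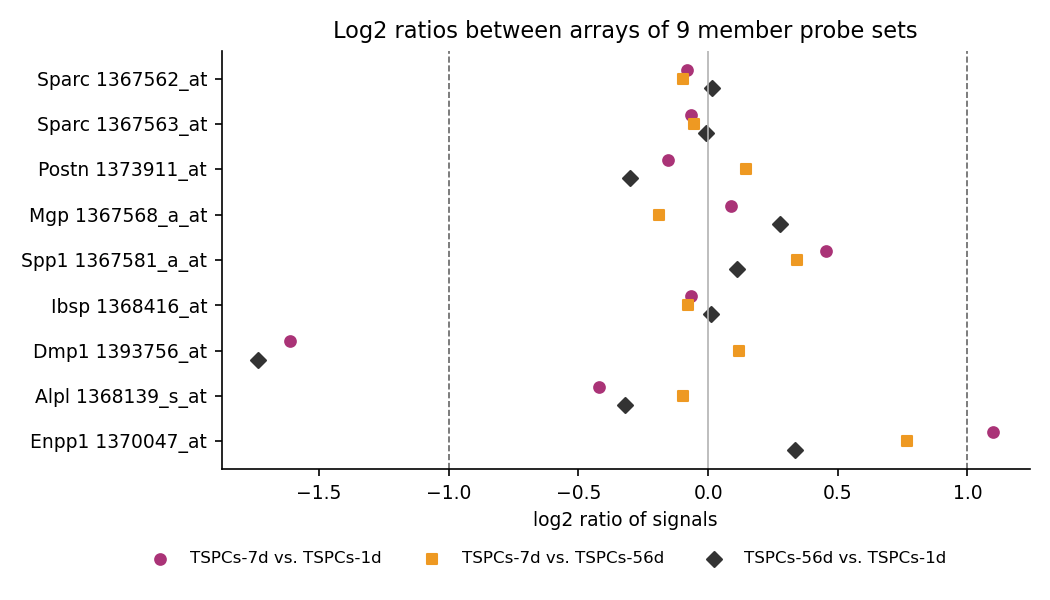
Log2 ratio of signals (horizontal) of the 9 member probe sets in the 3 comparisons of arrays, 1 marker per comparison, with dashed lines at 2-fold. Only Enpp1 (1.10 in TSPCs-7d vs. TSPCs-1d) and Dmp1 (-1.61 in TSPCs-7d vs. TSPCs-1d and -1.73 in TSPCs-56d vs. TSPCs-1d) lie outside the lines.

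*Sparc* was measured by 2 probe sets, and both were bright and level over age. The probe set 1367563_at read 16275 at 1 day, 15548 at 7 days and 16163 at 56 days, and 1367562_at had 10971, 10371 and 11086. Both were lowest in TSPCs-7d by a small margin, with log2 ratios to TSPCs-1d of -0.07 and -0.08. These are inside the differences that probe sets of a gene show on the same arrays. The largest difference of either *Sparc* probe set between arrays was 1.07-fold.

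*Postn*, a matrix protein of tissues under load that binds collagen and integrins, was brightest in TSPCs-1d. Its signals (1373911_at) were 18026 at 1 day, 16180.1 at 7 days and 14639 at 56 days, so that each older culture read lower, by 1.23-fold between the ends. *Mgp* ran the other way. Its signals (1367568_a_at) were 12535, 13336 and 15208, and TSPCs-56d was 1.21-fold above TSPCs-1d. Both log2 differences, -0.30 for *Postn* and 0.28 for *Mgp*, are under the 0.53 that 10% of probe set pairs exceeded. That level was taken over pairs of any brightness above the median of all signals, and not over pairs as bright as these.

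The signals of *Sparc*, *Postn* and *Mgp* lay near the top of the range of the arrays. The *Postn* signal was 96.1% of the highest signal on the TSPCs-1d array, and the brighter *Sparc* probe set was at 86.8%. Of 102 probe sets with a mean signal over 10000, to which the 4 probe sets of these genes belong, 0 were past 2-fold in any of the 3 comparisons. Their ratios lay between 0.808 and 1.23 in TSPCs-7d vs. TSPCs-1d and between 0.781 and 1.34 in TSPCs-56d vs. TSPCs-1d. In the latter, the median size of their log2 ratios was 0.046. *Postn* (-0.30, a ratio of 0.812) and *Mgp* (0.28, a ratio of 1.21) differed by more than this median. Whether they differ beyond the spread between cultures was not tested. Among 3011 probe sets with a mean signal over 1000 and up to 10000, 1.99% and 2.92% passed the cutoff in these comparisons. Whether true differences of the brightest genes were compressed was not tested.

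*Spp1* was highest in TSPCs-7d. Its signals (1367581_a_at) were 6932 at 1 day, 9493 at 7 days and 7486 at 56 days, which is 1.37-fold above TSPCs-1d and 1.27-fold above TSPCs-56d. The log2 ratios were 0.45 and 0.34, the first just above and the second below the level that 10% of probe set pairs exceeded (0.39 and 0.44). Macrophages also make osteopontin, and their markers were read beside it. Of 10 macrophage and blood genes, 4 exceeded the median of all signals on at least 1 array and 5 were dim on each. Their summed signal was 796, 783 and 966 in the order of age, and their part in the *Spp1* values was not tested. *Cd44*, a receptor of osteopontin, was level at 1385, 1293 and 1331. The integrin gene *Itgb3*, whose product pairs with the alpha V chain to bind osteopontin, bone sialoprotein and periostin, was highest in TSPCs-56d with 173, 201 and 669 (3.87-fold over TSPCs-1d and 3.33-fold over TSPCs-7d).

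*Ibsp* was faint and level. Its signals (1368416_at) were 115 at 1 day, 109.97 at 7 days and 116 at 56 days, close to the median of all signals on each array and within 1.06-fold of each other. No detection calls were used here, so whether a signal of this size stands above background is not known. The same holds for the other genes of the family that are not members. *Mepe* was dim on each array with 29.2, 34.4 and 31.1. The brightest *Dspp* probe set had 88.7, 122 and 119.9, and its other 2 probe sets lay between 37.3 and 116.

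*Dmp1*, best known from osteocytes and dentin-forming cells, was above the median of all signals in TSPCs-1d alone. Its signals (1393756_at) were 229.9 at 1 day, 75.1 at 7 days and 69.1 at 56 days. TSPCs-1d was high and both older cultures were low and close to each other. The gene was 3.06-fold lower at 7 days and 3.33-fold lower at 56 days than at 1 day, and the ratio of TSPCs-7d to TSPCs-56d was 1.09. Over all 31042 probe sets, 73 others (0.235%) were as far or farther below TSPCs-1d at 7 days, and 142 (0.457%) at 56 days. Both older signals are faint, and with each signal under 110.1 raised to that level the difference was 2.09-fold. Next to *Dmp1* on the chromosome, *Ibsp* was level, and the *Dspp* probe sets differed among themselves: the brightest was lowest in TSPCs-1d, and the dimmest was highest there (47.9, 46.9 and 37.3). Whether signals this faint stand above background is not known.

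**Figure D2:**
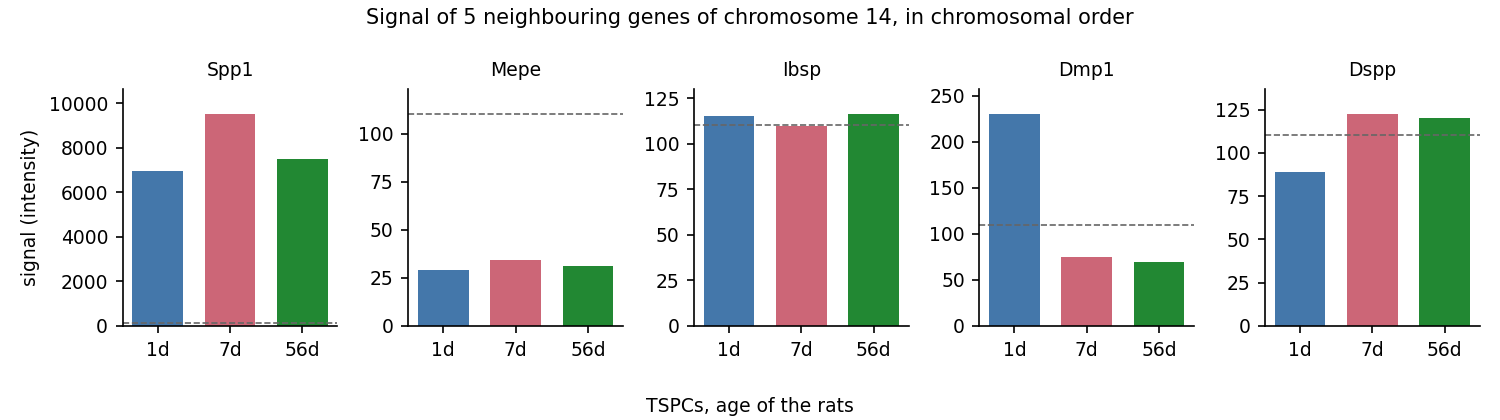
Array signal (intensity units, linear axes from 0, a different scale in each panel) of Spp1, Mepe, Ibsp, Dmp1 and Dspp in chromosomal order, 1 bar per array, with a dashed line at the median of all signals (110.1). Dmp1 is highest in TSPCs-1d (229.9), Spp1 is highest in TSPCs-7d (9493), and Mepe lies below the line on each array.

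The genes most like *Dmp1* were sought by the Euclidean distance between log2 signals of the 3 arrays, each gene centred on its own mean, among 644 other genes above the median signal with a range of over 2-fold. The nearest were *Irx3*, a homeobox transcription factor, with signals of 747, 264 and 235 by increasing age (distance 0.08), and *Bmper*, a secreted protein that binds BMPs, with 1168, 378 and 389 (0.13). The third was the adhesion receptor gene *Adgrg1* with 491, 182 and 178 (0.19). With 3 arrays the likeness rests on 3 points and says that these genes, too, were bright in TSPCs-1d.

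*Alpl* was faint on all arrays. Its signals (1368139_s_at) were 123 at 1 day, 91.7 at 7 days and 98.2 at 56 days. TSPCs-1d alone lay above the median of all signals, by a narrow margin, and the log2 ratios to it were -0.42 at 7 days and -0.32 at 56 days. With signals under 110.1 raised to that level, the differences shrank to 1.11-fold. The probe set ends in _s_at, a class whose probes can match more than 1 transcript.

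*Enpp1* was clearly above the median of all signals in each culture and highest in TSPCs-7d. Its signals (1370047_at) were 989 at 1 day, 2118 at 7 days and 1246 at 56 days. TSPCs-7d stood 2.14-fold above TSPCs-1d and 1.70-fold above TSPCs-56d, and TSPCs-56d was 1.26-fold above TSPCs-1d. In TSPCs-7d vs. TSPCs-1d, 344 other probe sets (1.11%) were as far or farther above TSPCs-1d. The log2 ratio of 1.10 passes the cutoff by a small amount. A second probe set of the gene to compare with was not found under the rule.

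The genes nearest to *Enpp1* in pattern, by the same measure, were *Cep57l1* with signals of 239.9, 503 and 295 (distance 0.03), *Haus4*, a subunit of the augmin complex of the mitotic spindle, with 584, 1274 and 730.3 (0.03), and *Rpa2*, a subunit of the replication protein that binds single-stranded DNA, with 260.5, 571 and 339 (0.03).

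**Figure D3:**
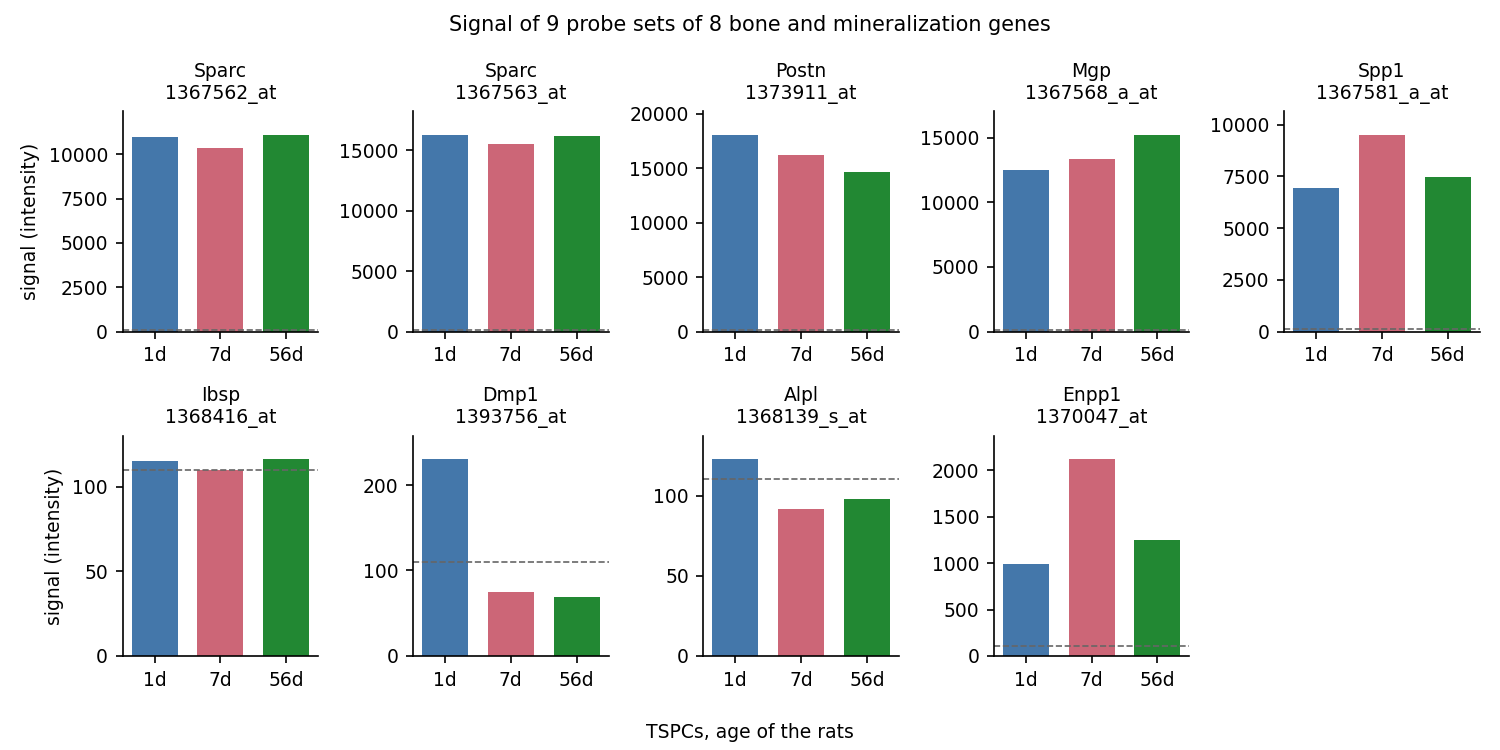
Array signal (intensity units, linear axes from 0, a different scale in each panel) of the 9 member probe sets at each age, 1 bar per array, with a dashed line at the median of all signals (110.1). Sparc, Postn and Mgp are bright and nearly level, Enpp1 is highest in TSPCs-7d (2118) and Dmp1 in TSPCs-1d (229.9), and Ibsp and Alpl lie near the line.

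Of 24 other measured genes of phosphate, pyrophosphate and calcium handling, 0 passed the cutoff in TSPCs-7d vs. TSPCs-1d, where 1.87% of all genes were higher and 1.08% lower. Between TSPCs-7d and TSPCs-56d, 0 were higher at 7 days and 2 lower, beside 2.10% and 1.72% of all genes, and in TSPCs-56d vs. TSPCs-1d 4 were higher and 0 lower, beside 2.00% and 1.77%. Highest in TSPCs-7d like *Enpp1*, but by less than 2-fold, were *Ppa1*, a pyrophosphatase of the cytosol (2459, 3135 and 2384), *Smpd3*, a sphingomyelinase needed for bone mineral (61.8, 85.00 and 62.3), the transporter gene *Abcc6* (67.2, 86.4 and 71.1) and the annexin gene *Anxa2* (9162, 10797 and 9394). The log2 ratios of *Ppa1*, *Abcc6* and *Anxa2* were under the levels that 10% of probe set pairs exceeded. These levels were 0.39 against TSPCs-1d and 0.44 against TSPCs-56d. *Smpd3* and *Abcc6* were below the median of all signals on each array. The other *Anxa2* probe set was highest in TSPCs-1d (73.6, 72.0 and 54.5). *Ankh*, which moves pyrophosphate out of the cell, was highest in TSPCs-56d with signals of 430.3, 372 and 687. That is 1.85-fold above TSPCs-7d, and its other probe set gave 1.69-fold. The phosphate transporter gene *Slc20a1* was level at 4531, 4039 and 4501. *Slc20a2* had 631, 406 and 468, while its other probe set was level (119.5, 113 and 126). *Enpp3*, a relative of *Enpp1*, had 96.3, 105 and 206, which puts TSPCs-56d 2.14-fold above TSPCs-1d.

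The remaining genes of this group past the cutoff were also higher in TSPCs-56d. *Nt5e*, the ectonucleotidase that makes adenosine from AMP, had signals of 41.9, 49.3 and 110.2. It was at least 2.25-fold above TSPCs-1d, whose signal was dim, and 2.24-fold above TSPCs-7d. *Tgm2*, a transglutaminase that crosslinks matrix proteins such as osteopontin, had 131, 109.9 and 322, or 2.46-fold above TSPCs-1d and 2.93-fold above TSPCs-7d, but its weaker probe set gave 1.58-fold and 1.06-fold with dim signals in all 3 cultures. *Enpp2*, which makes lysophosphatidic acid, was at least 1.58-fold above a dim signal in TSPCs-1d (32.8, 56.1 and 76.99). The phosphatase gene *Phospho1* of matrix vesicles stayed faint at 93.2, 97.7 and 113. *Ggcx*, the carboxylase that activates matrix Gla protein, was level at 761, 748 and 899.8.

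**Figure D4:**
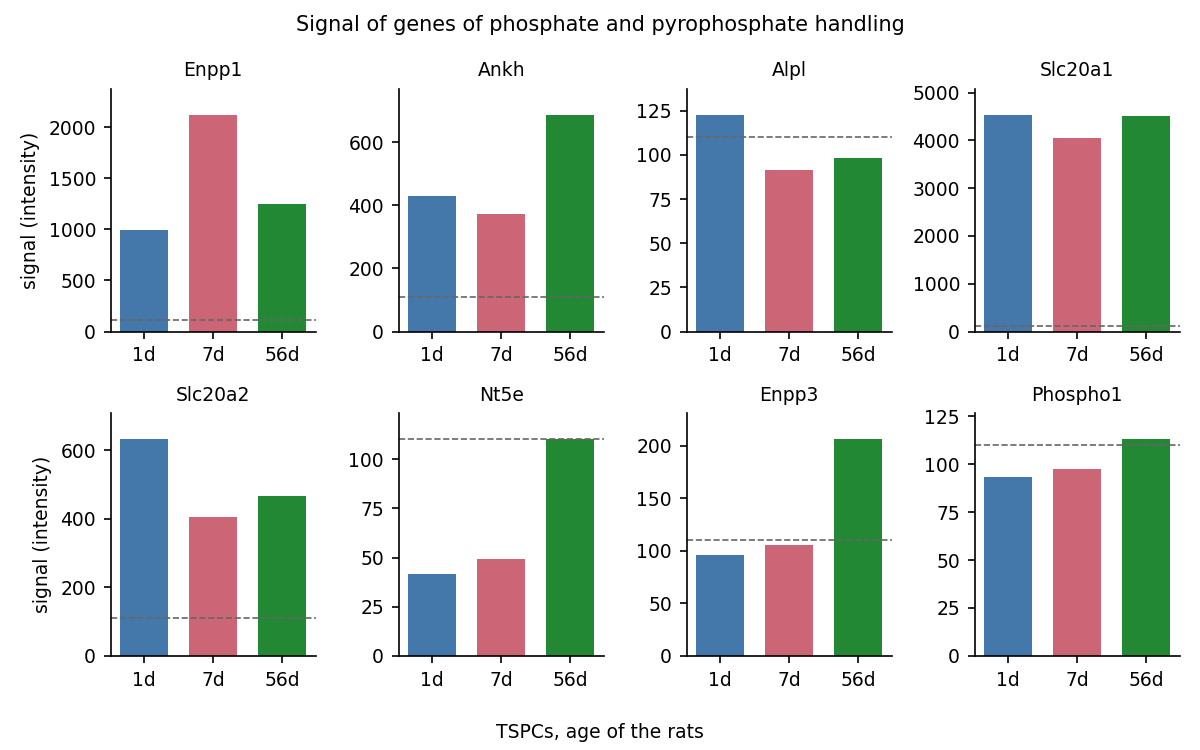
Array signal (intensity units, linear axes from 0, a different scale in each panel) of 8 genes of phosphate and pyrophosphate handling, read from the brightest probe set of each, 1 bar per array, with a dashed line at the median of all signals (110.1). Enpp1 is highest in TSPCs-7d (2118), and Ankh (687), Nt5e (110.2) and Enpp3 (206) are highest in TSPCs-56d.

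As *Runx2* and *Sp7* were not read, the transcription factors that work with them or act in the same cells were counted. Of 17 measured genes, 12 were above the median of all signals on each array. In TSPCs-7d vs. TSPCs-1d, 1 was over 2-fold higher and 0 lower, beside 1.87% and 1.08% of all genes. Between 7 and 56 days, 3 were higher at 7 days and 0 lower, beside 2.10% and 1.72%. In TSPCs-56d vs. TSPCs-1d, 1 was higher and 1 lower, beside 2.00% and 1.77%. The median log2 ratios were 0.09, 0.10 and -0.01 in this order, beside 0.01, -0.05 and 0.06 over all genes. *Zfp521*, a zinc finger protein that binds Runx2 and restrains it, was lowest in TSPCs-1d with signals of 249, 559 and 575. *Lef1*, a nuclear partner of beta-catenin, was highest in TSPCs-7d (175, 274 and 98.98; 2.76-fold above TSPCs-56d and 2.22-fold in its other probe set). The homeobox gene *Dlx5* had 109.7, 148 and 69.5, also highest in TSPCs-7d and 2.12-fold above TSPCs-56d, from faint signals. *Mef2c* was lowest in TSPCs-56d (642, 563 and 278), and its other probe set moved the same way. *Cbfb*, the partner subunit of all Runx factors, was nearly level with 1299, 1296 and 1076, and *Runx1* had 1388, 1399 and 1785.

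Among 24 secreted proteins of bone matrix that are not members, 1 was over 2-fold higher and 0 lower in TSPCs-7d vs. TSPCs-1d. At 56 days, 2 stood above TSPCs-1d by that margin and 0 below. The shares over all genes were 1.87% and 1.08% in the former comparison and 2.00% and 1.77% in the latter. Between the older cultures, 1 gene passed the cutoff in its brightest probe set, with the weaker signal at 7 days. There, 2.10% of all genes had the stronger signal at 7 days and 1.72% the weaker. *Ogn* was stronger at 7 days than at 56 days, by 1.92-fold in its brightest probe set. Its other probe sets gave 2.17-fold, 2.02-fold and 1.80-fold. *Thbs2*, thrombospondin 2, was the one that changed at each step, with signals of 285, 741 and 1991, 2.60-fold and then 2.69-fold. The tenascin gene *Tnc*, also a tendon marker, had 5280.4, 7302 and 11185 (2.12-fold over the ends). The collagen I genes were level and near the top of the range, *Col1a1* with 14491, 14736 and 14286 and *Col1a2* with the highest signal of each array. *Bglap*, which encodes osteocalcin, the late marker of osteoblasts, was dim on each array with 34.4, 33.8 and 30.3.

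Of 20 measured genes of osteocytes, bone hormones and BMP signalling, 4 were over 2-fold higher and 1 lower in TSPCs-56d vs. TSPCs-1d, beside 2.00% and 1.77% of all genes. The median log2 ratio was 0.39, beside 0.06 over all genes. In TSPCs-7d vs. TSPCs-56d, 1 was higher and 5 lower, beside 2.10% and 1.72% (median -0.28, beside -0.05 over all genes). In TSPCs-7d vs. TSPCs-1d, 0 passed the cutoff in the brightest probe set. The gene higher in TSPCs-7d was *Bmp4*, a BMP ligand, with signals of 929, 1703 and 479 (3.55-fold above TSPCs-56d). *Nog*, a secreted antagonist of BMPs, had signals of 98.8, 107 and 699 and was 7.07-fold above TSPCs-1d in TSPCs-56d. *Bmp6* had 128, 250.2 and 718 (5.63-fold), but its other 3 probe sets gave 2.16-fold, 1.36-fold and 1.02-fold. *Bmp2*, which drives osteoblast formation, was lower with 324, 172 and 125, a 2.59-fold difference between TSPCs-1d and TSPCs-56d and 2.33-fold in its other probe set. That other probe set was also past the cutoff at 7 days (2.03-fold below TSPCs-1d, beside 1.88-fold in the brighter one). *Tnfrsf11b*, which encodes osteoprotegerin, the decoy receptor that blocks osteoclast formation, was lowest in TSPCs-7d with 2395, 1334 and 3788. *Sost*, the osteocyte gene of sclerostin, was faint at 70.6, 66.1 and 79.6.

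Of 13 receptors and partners of the members, 1 was higher in TSPCs-7d vs. TSPCs-1d and 3 in TSPCs-56d vs. TSPCs-1d. Both comparisons had 0 lower. Among all genes, 1.87% rose and 1.08% fell past the cutoff in the former, and 2.00% and 1.77% in the latter. Between the older cultures, *Itgb3* alone passed the cutoff, with its weaker signal at 7 days. There, 2.10% of all genes had the stronger signal at 7 days and 1.72% the weaker. *Mmp3*, a protease that cuts osteopontin, was low in TSPCs-1d alone (332, 1930.1 and 1926), and *Mmp9* had 111, 205 and 258. Over the 98 genes of all 5 lists, 14 (14.3%) were over 2-fold higher and 2 (2.04%) lower in TSPCs-56d vs. TSPCs-1d. This is beside 2.00% and 1.77% of all genes. With signals under 110.1 raised to it, 10 were past the cutoff on the higher side. In TSPCs-7d vs. TSPCs-1d, 3 (3.06%) were higher and 0 lower, and at 7 days compared to 56 days 4 (4.08%) were higher and 9 (9.18%) lower. The lists hold genes of matrix-forming cells at large and were chosen with earlier results of these arrays known, so these shares describe the lists and set them apart from nothing. Of 4 osteoclast markers measured, 2 were past 2-fold on the higher side at 56 days compared to 1 day: the protease gene *Ctsk*, which fibroblasts also express, had 480.4, 762 and 1803, and *Mmp9* is given above, while *Acp5* was faint (39.2, 40.6 and 57.5). Some markers of other cells differed between the same ages. Of 5 skeletal muscle genes, 1 was over 2-fold higher in TSPCs-56d than at 1 day and 0 lower. It was *Acta1* with 1772, 855 and 5327 (3.01-fold). Of 7 smooth muscle and pericyte genes, 1 was higher and 0 lower, *Myh11* with 2186, 1671 and 5067 (2.32-fold). Of 9 cartilage genes, 0 were higher and 2 lower. These were *Acan* with 8588, 8224 and 2874 (2.99-fold) and *Hapln1* with 399.8, 428 and 119.8 (3.34-fold). The other measured genes of these 3 lists stayed within 2-fold in this comparison. The median log2 ratios were 0.36 for skeletal muscle, 0.04 for smooth muscle and -0.02 for cartilage. The summed signal was 692, 1063 and 2174 for the osteoclast list, 1931, 1036 and 5530.2 for skeletal muscle, 33245, 27650 and 36682 for smooth muscle and 9416, 9110 and 3465 for cartilage, each carried by its brightest genes. The part of these cell types in the counts was not tested.

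**Figure D5:**
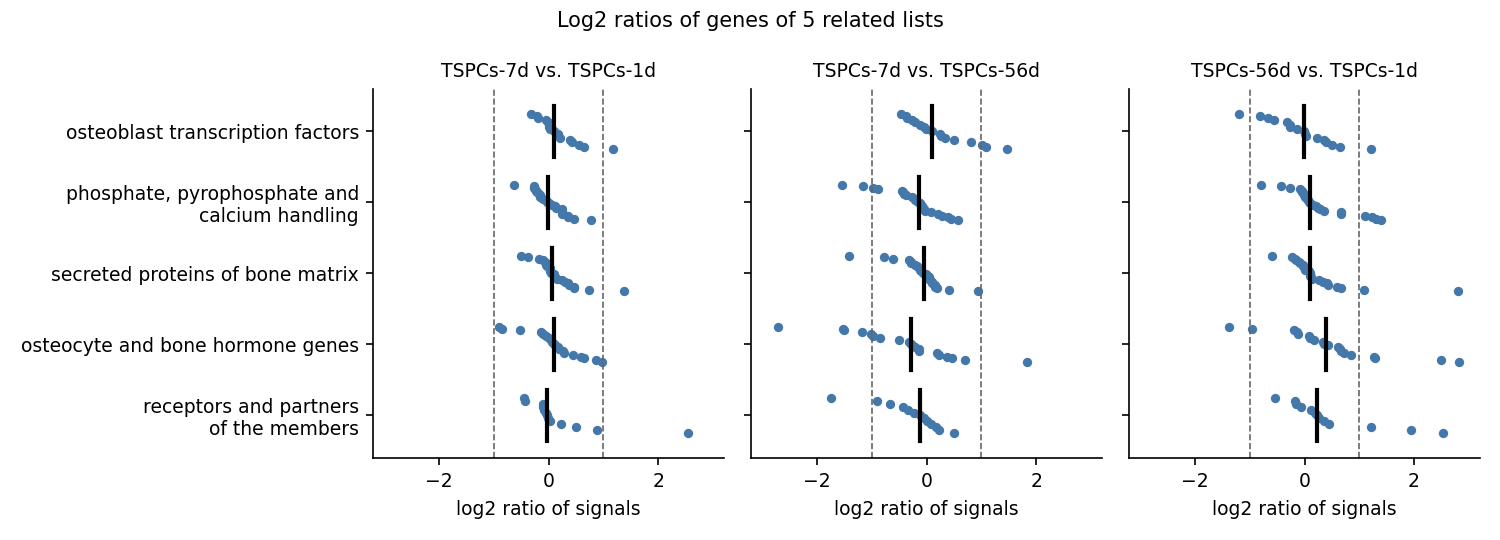
Genes (points) of 5 lists related to bone and mineral by their log2 ratio of signals between a pair of arrays, for the 3 pairs, with list medians as black bars and dashed lines at 2-fold. The list of osteocyte and bone hormone genes has its median at 0.39 in TSPCs-56d vs. TSPCs-1d and at -0.28 in TSPCs-7d vs. TSPCs-56d.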

How the data were processed

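Total RNA of 3 TSPC cultures was hybridized to 1 array each. The deposited values are array intensity on a linear scale (31042 probe sets, lowest value 1) that the authors had already normalized between arrays. Their methods give both MAS5 and RMA for this, whereas only MAS5 is in the submitters' processing notes. How they were combined is not given in the sources used here. Raw intensities, control probes and detection calls were not used here.

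Signals were used as deposited, with no floor, filter or further scaling. Ratios compare signals between arrays for 1 probe set. Signals of different probe sets were only summed over marker lists, or set against the median or highest signal, as a description. These do not compare amounts of RNA between genes. Ratios above 2 counted as higher and those below 0.5 as lower. As each age has 1 array, no error could be estimated and no p-value was computed; the number of arrays limits the precision.

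The platform's table gave 1 symbol to 20826 probe sets, several to 436 and none to 9780. Of the first, 20758 had their gene ID in the RefSeq table of GRCr8, used for names and neighbours. A gene of a list was read from its brightest probe set (mean over the arrays). The members, 5 related lists, 8 marker lists and the choice of named genes were made with earlier results of these data known. Named genes are all members, at most 4 genes per list, comparison and direction past 2-fold, and the 3 genes nearest in pattern to each member with a range over 2-fold. *Scx*, *Thbs4*, *Tnmd*, *Cd68*, *Aif1*, *Lyz2*, *Cd14*, *Ptprc*, *Acta1*, *Myh11*, *Acan*, *Hapln1*, *Ppa1*, *Smpd3*, *Abcc6*, *Anxa2*, *Cd44*, *Mepe*, *Dspp*, *Ogn*, *Ankh*, *Slc20a1*, *Slc20a2*, *Phospho1*, *Ggcx*, *Cbfb*, *Runx1*, *Col1a1*, *Col1a2*, *Bglap*, *Sost*, *Ctsk* and *Acp5* were named after their values were seen.

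The alternatives were division by the array median, quantile normalization, centring by a loess curve of span 0.2 and a pseudocount of 32. Floors at the 25th percentile and the median of all signals and a filter on mean signal were also used. Further ones were omission of probe sets ending in _s_at, _x_at or _a_at, and 1 probe set or the mean of all probe sets per gene. Cutoffs of 1.5 and 3 were the last. The calculation was tested on simulated data. Calculations ran in Python (3.11.15) with pandas (2.3.3), numpy (2.4.6) and statsmodels (0.14.6), and plots in matplotlib (3.10.9).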

Additional observations from a re-analysis of the deposited data

How the results depend on the processing

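*Enpp1* was over 2-fold higher in TSPCs-7d vs. TSPCs-1d under 8 alternatives in scaling, floor, pseudocount or set of probe sets (log2 ratio 1.07 to 1.11). Both floors, the filter and the omission could not move it from 1.10. Only division by the array median, quantile normalization, the loess curve and the pseudocount could change it. *Dmp1* stayed over 2-fold lower in TSPCs-7d (-1.63 to -1.06) and in TSPCs-56d (-1.84 to -1.06) under the same 8. For *Dmp1*, the lower floor, the filter and the omission could not change the ratios. Among ratios of members, 228 values under the alternatives kept their side of the cutoff. Many of them could not move, as a filter or an omission reuses the ratio and a floor does not touch bright signals. Others are ratios near 1, far from the cutoff, so the count is not a measure of stability. The count of members changed with the cutoff alone. At 1.5-fold, *Enpp1* was also higher in TSPCs-7d vs. TSPCs-56d (1 probe set in place of 0), and at 3-fold 0 were higher in TSPCs-7d vs. TSPCs-1d, with *Dmp1* still lower. Ratios near 1 have no settled sign: that of *Ibsp* changed sign under 3 alternatives in TSPCs-7d vs. TSPCs-56d.

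Counts over all probe sets depended on faint signals. At a cutoff of 2 they were 729 between 1 and 7 days, 929 between 7 and 56 days and 1031 between 1 and 56 days. In the same order they became 414, 504 and 511 after raising signals to the median of all signals, 414, 508 and 568 after adding the pseudocount, 453, 558 and 582 among the brighter part of the probe sets, and 419, 542 and 535 when genes were counted. A cutoff of 1.5 gave 2383, 3060 and 3539, and a cutoff of 3 gave 159, 244 and 357. In TSPCs-56d vs. TSPCs-1d, the split of 473 higher and 558 lower became 381 and 692 after division by the array median. The counts of the related lists were recomputed after seeing the data: 14 genes higher in TSPCs-56d vs. TSPCs-1d became 10 at the lowest, with 24 at a cutoff of 1.5 and 5 at 3. In TSPCs-7d vs. TSPCs-56d, 4 higher became 2 with the pseudocount. No paired analysis was possible because each age has 1 array and no test was made.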
